A study of Homo sapiens with 8 samples.

Results

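The transcripts described here encode the factors that start and carry out protein synthesis on cytosolic ribosomes, and their levels were measured by RNA sequencing. The cells were MDA-MB-157, an established human breast cancer cell line that lacks the estrogen receptor. Members were all genes of the expression table whose symbol begins with EIF1 to EIF6 or with EEF1 or EEF2. The EIF2AK kinases (5 genes) and symbols that end in P and a digit were left out, which removed 21 pseudogenes and the 3 EIF4EBP genes, whose names end in the same way although they encode proteins. This rule gave 64 members of the 21059 genes in the table. It used symbols and no expression values.

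Serum-free medium contained either 5 mM glucose (low glucose) or 25 mM glucose (high glucose), the exposure lasted 48 hours, and each group has 4 replicate libraries. The comparison asks how transcript levels differ when glucose is raised from a normal level to one that models diabetes. Both groups came from the same established line, carry no genetic change that separates them, and had been kept in low glucose medium before the switch. The 8 libraries include no osmotic control, so the effect of glucose and that of osmolarity cannot be told apart. Whether the replicates were separate experiments is not stated, and p-values therefore measure the spread between these libraries, which may be technical.

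Translation of most messenger RNAs begins when the eIF4F complex, made of the cap-binding protein eIF4E, the scaffold eIF4G and the helicase eIF4A, brings the small ribosomal subunit to the capped end of the transcript. The small subunit already carries eIF3, eIF1, eIF1A and the ternary complex of eIF2, GTP and initiator tRNA, and it scans to the start codon, where eIF5 and eIF5B complete GTP hydrolysis and the joining of the large subunit. In elongation, eEF1A delivers each aminoacyl-tRNA, eEF1B recharges eEF1A with GTP, eEF2 moves the ribosome along, and eIF5A assists difficult peptide bonds. Many transcripts of this machinery, those of the ribosomal proteins included, begin with a C followed by an uninterrupted run of pyrimidines, the 5' terminal oligopyrimidine (TOP) tract, through which the mTOR pathway controls their translation and stability.

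Levels are given in counts per 1000000 reads (CPM), scaled between libraries by the authors. Each library held an estimated 9.72e+06 to 1.25e+07 reads, and 3 reads corresponded to 0.212 to 0.267 CPM. CPM is relative to the other transcripts of a library, so a change in the total RNA of a cell is not measured, and in bulk RNA a change in the number of cells that express a gene and a change in RNA per cell cannot be told apart. ESR1, which encodes the estrogen receptor, lay between 0 and 0.17 CPM, PGR between 4.33 and 5.955 CPM and ERBB2 between 35.7 and 65.0 CPM. Of the epithelial markers, KRT8 lay between 76.4 and 138 CPM and KRT18 between 156 and 238 CPM. EPCAM lay between 3.93 and 7.62 CPM and CDH1 between 0.33 and 1.41 CPM. The mesenchymal marker VIM lay between 2856 and 4116 CPM. The blood cell marker PTPRC stayed at or below 0.178 CPM, and the endothelial marker PECAM1 lay between 0.911 and 2.84 CPM. High glucose replicate 1 stood apart from the other libraries of its group, because its deviations from the rest of the group fell with transcript length (Spearman rho = -0.65 across 11223 genes, which are not independent replicates), against 0.25, 0.34 and 0.47 in the other high glucose libraries and -0.13 to 0.06 at low glucose. Those other high glucose libraries were each compared with a mean that includes replicate 1, so their values are not independent of its trend. Of the 18 members with a transcript under 2000 bases and at least 5 CPM, 15 were highest within the high glucose group in this replicate, against 4 of 13 with a transcript of 4000 bases or more.

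The starts of the transcripts are shown because the members are grouped by them further on. RefSeq start sites were found for 52 of the 64 members, and a TOP start, taken as a C at the first base followed by at least 4 further pyrimidines, was present in 13 of them, 25.0%, against 5.14% of the 27305 genes with a RefSeq start. Those genes were not limited to the ones expressed in these cells, as most members are, so the shares are not matched for expression. Each line gives 10 bases before the start and 20 from it, on GRCh38.p14 in the 5' to 3' direction of the transcript, with the TOP tract in capitals. The first 8 members have such a tract, and the last 4 have none.
EEF1A1 (chr6:73521013-73521042, minus strand): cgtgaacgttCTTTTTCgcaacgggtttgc
EEF2 (chr19:3985444-3985473, minus strand): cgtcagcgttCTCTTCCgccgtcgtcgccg
EIF4B (chr12:53006446-53006475, plus strand): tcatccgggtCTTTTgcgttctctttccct
EIF2S3 (chrX:24054946-24054975, plus strand): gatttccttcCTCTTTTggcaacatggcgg
EIF2D (chr1:206612446-206612475, minus strand): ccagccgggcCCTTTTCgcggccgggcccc
EIF3F (chr11:7987327-7987356, plus strand): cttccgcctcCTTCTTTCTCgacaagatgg
EIF3K (chr19:38619178-38619207, plus strand): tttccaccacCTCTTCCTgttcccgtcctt
EIF4A2 (chr3:186783567-186783596, plus strand): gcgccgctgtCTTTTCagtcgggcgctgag
EIF1 (chr17:41688875-41688904, plus strand): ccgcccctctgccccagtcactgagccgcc
EIF1B (chr3:40309697-40309726, plus strand): cattttgtgcgagaagccgcagcgccgcct
EIF5A2 (chr3:170908618-170908647, minus strand): cccgtctcttggaactgccgcggccgccac
EEF2K (chr16:22206268-22206297, plus strand): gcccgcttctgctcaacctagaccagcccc

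Of the 64 members, 24 were higher and 18 lower at high glucose at an adjusted p under 0.05, and 22 did not pass. Over all genes, 46.8% passed, 22.0% as higher and 24.8% as lower. Among the 59 members with a mean of at least 5 CPM the counts were 24 higher, 17 lower and 18 not past the threshold, against 66.9% of all genes at that level (33.6% higher and 33.3% lower). The 2 groups of libraries did not overlap for 43 of these 59 members, and for 65.0% of all genes of at least 5 CPM. The median difference over the 59 members was 0.07 on the log2(CPM + 1) scale, beside -0.0071 over all genes of at least 5 CPM, and the median size of the difference was 0.33 beside 0.35. The share of members that passed was therefore close to that of other transcripts, and what follows is about which members rose and which fell. Counts by role and groups without overlap, given below, are to be read beside these shares of all genes. Without high glucose replicate 1, 41 of the 42 calls were kept, that of EIF3J-DT was lost, and 6 further members passed. The other 5 members lay under 5 CPM, and 4 of them (EIF2S3B, EIF5AL1, EIF1B-AS1 and the readthrough gene EEF1E1-BLOC1S5) were under 1 CPM in every library.

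**Figure D1:**
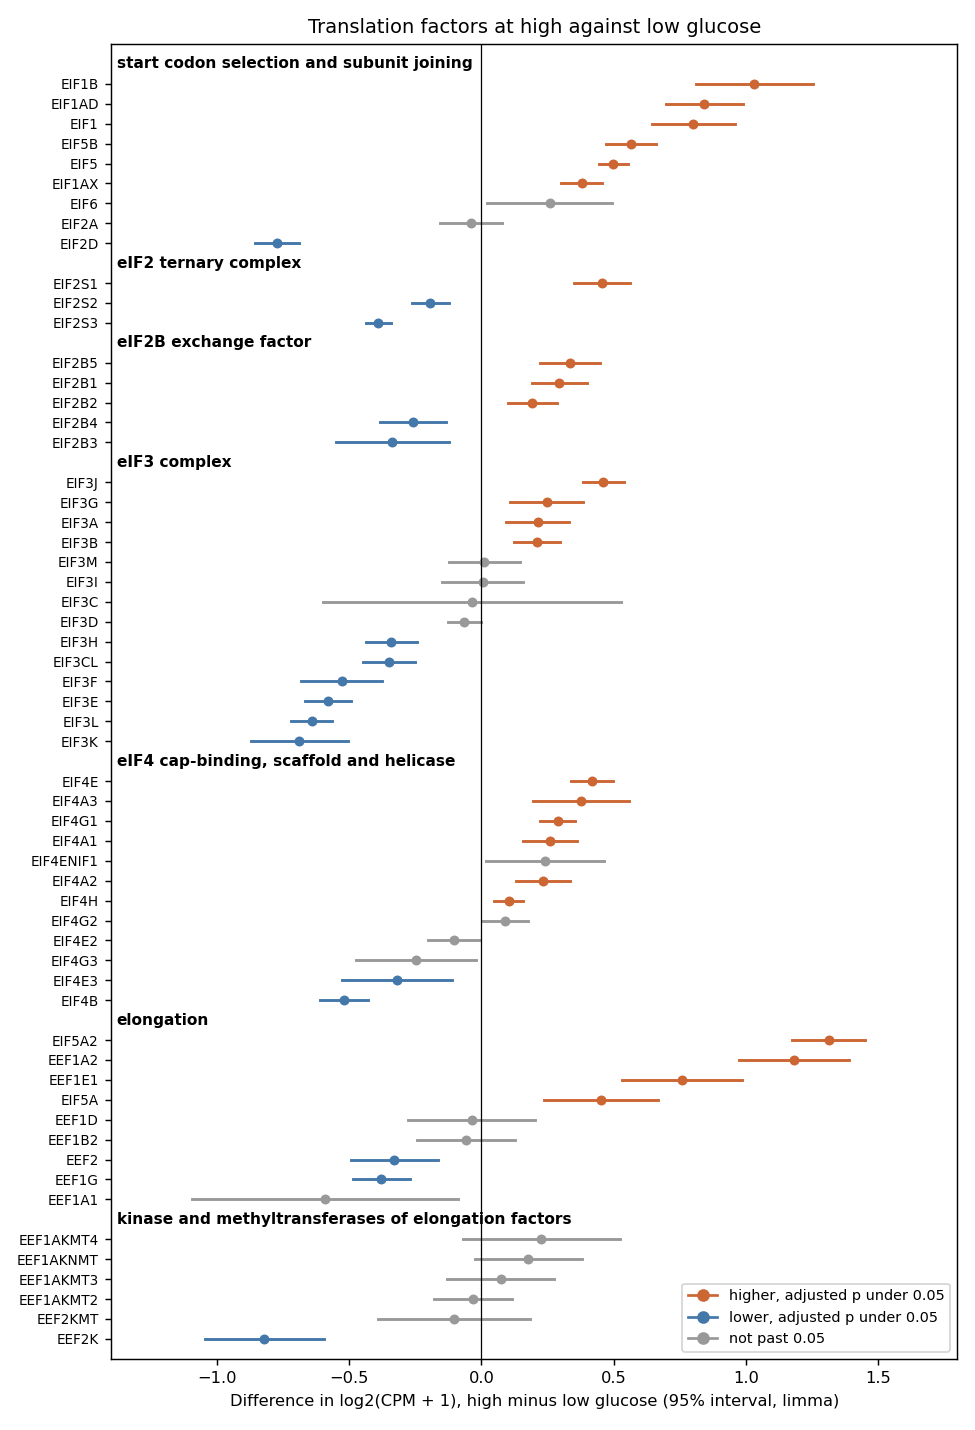
Difference in log2(CPM + 1), high minus low glucose, for each member of at least 5 CPM that belongs to a role group, with the 95% interval from limma on the horizontal axis and members grouped by role on the vertical axis. EIF5A2, EEF1A2 and EIF1B lie beyond 1, EEF2K and EIF2D have the largest falls, and EIF3C and EEF1A1 have the widest intervals.

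Elongation factor transcripts changed in opposite directions. The summed level of all 64 members was 28686 ± 226 CPM (SD, n = 4) at low glucose and 23703 ± 1489 CPM (SD, n = 4) at high glucose. The mean of EEF1A1, which encodes the main eEF1A of proliferating cells, fell by slightly more CPM than this sum. EEF1A1 measured 15530, 15324, 15248 and 15122 CPM at low glucose and 11506, 9639, 9817 and 9809 CPM at high glucose. The groups did not overlap, and high glucose replicate 1 was the highest of its group. EEF1A1 made up 53.4% ± 0.2 (SD, n = 4) of the members' summed level at low glucose and 43.0% ± 0.97 (SD, n = 4) at high glucose. The remaining 63 members together measured 13380 ± 67 CPM and 13510 ± 612 CPM (SD, n = 4 each), which overlapped.

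The test of EEF1A1 depended on the genes fitted with it. In the fit of all genes its difference was 0.666-fold, log2 difference -0.59 ± 0.21 SE, adjusted p = 0.0574, which did not pass. With genes under a mean of 1 CPM left out, the difference was the same and the adjusted p was 8.36e-06, since limma draws the spread of each gene towards a trend fitted over all genes included. Without high glucose replicate 1, its highest high glucose library, the difference was -0.65 with an adjusted p of 0.00142. Quantile normalization turned the sign, to 0.51 with an adjusted p of 0.0191, and over all alternatives the adjusted p of EEF1A1 ranged from 1.58e-07 to 0.169. That scaling keeps only the rank of a gene within its library, and EEF1A1 was the gene of rank 3 in each low glucose library and of rank 2 in each high glucose library, while the share of the library it took went from 1.72% to 1.76% at low glucose to 1.13% to 1.31% at high glucose. Of the sampled words of 31 bases in its transcript, 43.0% also occur in another gene, mainly the pseudogene EEF1A1P5, so part of its reads may have been assigned elsewhere.

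EEF1A2, the eEF1A paralog that is normally restricted to muscle and neurons and is often expressed in breast tumors, rose. It measured 118, 129, 132 and 134 CPM at low glucose and 336, 296, 293 and 251 CPM at high glucose. Each high glucose library was above every low glucose library (2.29-fold, log2 difference 1.18 ± 0.088 SE, adjusted p = 4.33e-05). The log2 ratio of EEF1A1 to EEF1A2 fell by 1.77 (exact permutation test, 2-sided, p = 0.0286, the smallest that 4 against 4 libraries allow, adjusted p = 0.04 over 7 paralog pairs), and by 0.57 under quantile normalization (adjusted p = 0.04). On the CPM scale the p was fixed by the genes themselves, since neither overlapped between the groups and they went in opposite directions. In CPM, the ratio was 131, 119, 115 and 113 in the low glucose libraries and 34.3, 32.6, 33.5 and 39.1 in the high glucose libraries. Since CPM is not divided by transcript length, this ratio is read only for its change between the groups.

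**Figure D2:**
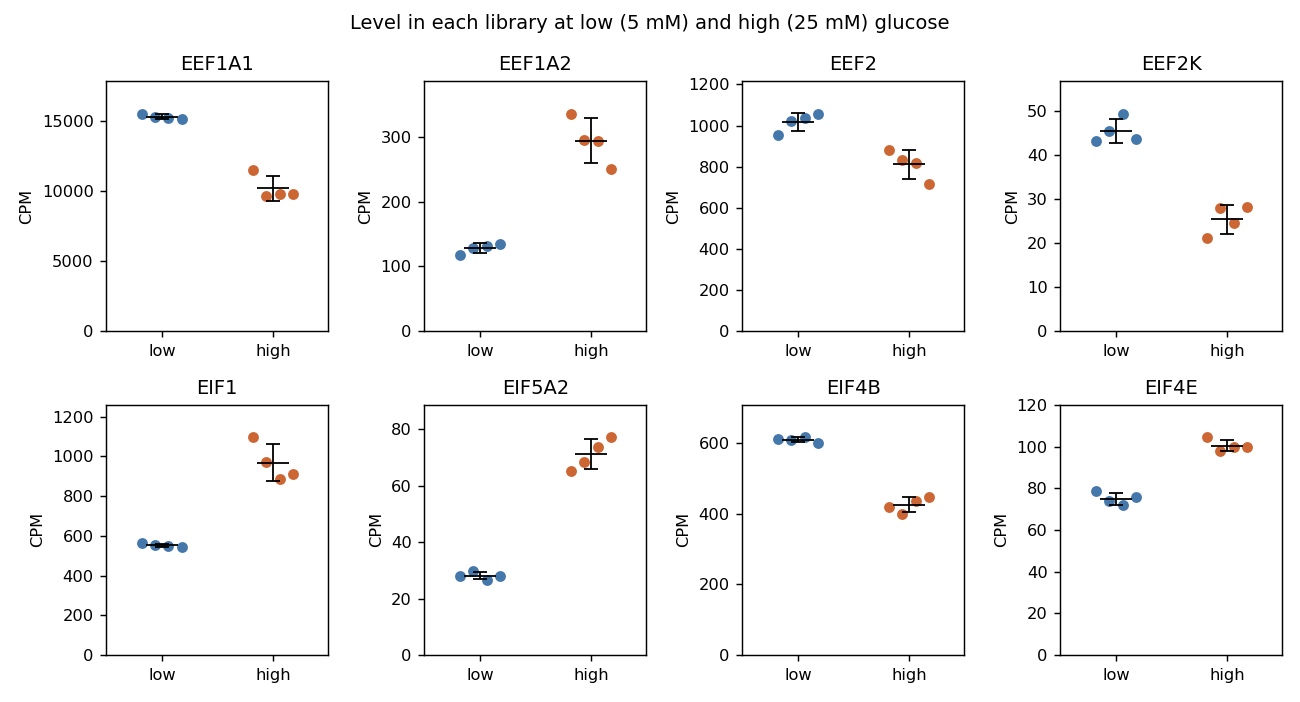
Level in CPM of 8 members in each library at low and high glucose (points), with the group mean (horizontal mark) and the SD (bars, n = 4), on axes that start at 0. EEF1A1, EEF2, EEF2K and EIF4B are lower in all high glucose libraries, and EEF1A2, EIF1, EIF5A2 and EIF4E are higher in all of them. The lower level of EEF1A1 did not pass the test over all genes and turned sign under quantile normalization.

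EEF2, the translocase, fell, and so did the kinase that inactivates it. EEF2 measured 954, 1023, 1038 and 1058 CPM at low glucose and 880.2, 833, 820.2 and 715 CPM at high glucose (0.797-fold, log2 difference -0.33 ± 0.07 SE, adjusted p = 0.00676), and its difference was -0.18 under quantile normalization. EEF2K, the calcium-dependent kinase that phosphorylates eEF2 and slows elongation, measured 43.3, 45.5, 49.4 and 43.7 CPM at low glucose and 21.1, 27.9, 24.6 and 28.1 CPM at high glucose. No high glucose library reached the lowest low glucose library for either gene, and the fall of EEF2K was by 44.1% (0.559-fold, log2 difference -0.82 ± 0.096 SE, adjusted p = 0.000376). The transcript of EEF1G, a structural subunit of the exchange factor eEF1B, was 1510 ± 37 CPM and 1161 ± 56 CPM (SD, n = 4 each, adjusted p = 0.000449), but 99.6% of its sampled words are shared with an overlapping locus on the same strand, and its call was lost under quantile normalization. The exchange subunits of eEF1B, EEF1B2 (410 and 395 CPM) and EEF1D (363 and 357 CPM), did not pass (adjusted p = 0.589 and 0.823). EEF1B2 measured 402 to 418 CPM in the low glucose libraries and 467, 375, 370 and 369 CPM in the high glucose libraries. It passed as lower without high glucose replicate 1, its highest library. EEF1E1, which joins the multi-tRNA synthetase complex, rose from 15.5 to 18.4 CPM at low glucose to 24.6 to 32.0 CPM at high glucose (1.74-fold, log2 difference 0.76 ± 0.096 SE, adjusted p = 0.000565), and it shares 40.4% of its words with the readthrough gene EEF1E1-BLOC1S5, which was listed at 0.

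Both eIF5A genes rose, EIF5A2 the more. eIF5A is the only protein known to carry hypusine, a modified lysine, and it relieves ribosomes stalled at runs of proline. EIF5A2, a paralog with restricted expression in normal tissue, measured 27.8, 29.6, 26.7 and 27.8 CPM at low glucose and 65.3, 68.3, 73.9 and 77.1 CPM at high glucose, the largest rise among the members of at least 5 CPM (2.54-fold, log2 difference 1.31 ± 0.058 SE, adjusted p = 4.81e-06). EIF5A measured 362, 341, 352 and 351 CPM at low glucose and 583, 472, 455 and 428 CPM at high glucose (1.38-fold, log2 difference 0.45 ± 0.092 SE, adjusted p = 0.00556). High glucose replicate 1, the library with raised short transcripts, held the highest EIF5A value and the lowest high glucose EIF5A2 value, and without it the differences were 0.36 for EIF5A and 1.35 for EIF5A2. The log2 ratio of EIF5A to EIF5A2 fell by 0.86 (exact permutation p = 0.0286, adjusted p = 0.04), and it ranged from 11.5 to 13.2 in CPM at low glucose and from 5.54 to 8.92 at high glucose. Without any 1 low glucose library the ratio differed by -0.90 to -0.84 with an adjusted p of 0.08, and the adjusted p of the other 4 pairs that passed went to 0.05, no longer under the threshold, in a test of 35 assignments whose smallest p is 0.0286. EIF5A shares 55.6% of its words with EIF5AL1 and overlaps GPS2 on the opposite strand.

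The other kinase-group members, methyltransferases that modify eEF1A or eEF2, had means of 2.45 to 38.0 CPM and differences of -0.29 to 0.23 on the log2 scale. EEF1AKMT1 was lower (2.80 and 2.11 CPM, adjusted p = 0.0219), and its call was lost under quantile normalization, with the length trend removed, and without low glucose replicate 1, 3 or 4 or high glucose replicate 2 or 3. EEF1AKMT2, EEF1AKMT3, EEF1AKMT4, EEF1AKNMT and EEF2KMT had differences of -0.11 to 0.23 on the log2 scale, none past the threshold in the fit of all genes. EEF1AKMT4 passed under quantile normalization and with the length trend removed, EEF1AKNMT with the length trend removed, and EEF2KMT without high glucose replicate 1.

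The genes listed under start codon selection and subunit joining were mostly higher at high glucose. Of 9 genes, 6 were higher, 1 lower and 2 not past the threshold, with a median log2 difference of 0.50. The 6 include EIF1AD, which is described below only by its likeness to eIF1A. Of all genes of at least 5 CPM, 33.6% were higher and 33.3% lower. eIF1 sits near the P site of the small subunit and keeps it from stopping at poor start codons. EIF1 measured 564, 553, 551 and 544 CPM at low glucose and 1096, 973, 887 and 914 CPM at high glucose (1.75-fold, log2 difference 0.80 ± 0.066 SE, adjusted p = 7.01e-05). Its paralog EIF1B measured 18.1, 16.8, 19.4 and 20.6 CPM at low glucose and 43.3, 33.3, 40.00 and 40.9 CPM at high glucose (2.1-fold, log2 difference 1.03 ± 0.094 SE, adjusted p = 0.000111). The groups did not overlap for either gene, and the log2 ratio of EIF1 to EIF1B, 4.82 ± 0.13 and 4.59 ± 0.18 (SD, n = 4 each), differed by -0.23 with an exact permutation p of 0.114 (adjusted p = 0.133).

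EIF5, which triggers GTP hydrolysis by eIF2 and promotes initiation at weaker start codons, rose from 413 to 420 CPM at low glucose to 574 to 602 CPM at high glucose (1.41-fold, log2 difference 0.50 ± 0.023 SE, adjusted p = 5.45e-06). EIF5B, the GTPase that joins the large subunit, rose from 82.6 to 89.1 CPM to 120.1 to 133 CPM (adjusted p = 3.55e-05). EIF1AX, the partner of eIF1 in scanning, rose from 185 to 195 CPM to 242 to 263 CPM (adjusted p = 8.62e-05). EIF1AD, which encodes a protein with a domain like that of eIF1A, measured 33.3, 29.6, 32.9 and 32.6 CPM at low glucose and 58.5, 53.6, 57.1 and 64.3 CPM at high glucose (1.82-fold, log2 difference 0.84 ± 0.062 SE, adjusted p = 4.1e-05). For these 4 genes no low glucose library reached the lowest high glucose library.

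The exception in this group was EIF2D, a factor that can place tRNA on the ribosome without eIF2 and acts in ribosome recycling. EIF2D fell by 41.9%, from 104 to 113 CPM at low glucose to 59.5 to 64.8 CPM at high glucose (0.581-fold, log2 difference -0.77 ± 0.035 SE, adjusted p = 5.15e-06). EIF2A (65.1 and 63.3 CPM) and EIF6, which keeps the ribosomal subunits apart (91.4 and 110.4 CPM), did not pass (adjusted p = 0.580 and 0.0727). EIF6 passed as higher when genes under 1 or 5 CPM were left out, under median-of-ratios scaling and with equal totals. It also passed with the length trend removed and without high glucose replicate 4.

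The bases around the start codon are shown because EIF1 and EIF1B lack both favoured bases there, a purine 3 bases before the ATG (-3) and a G just after it (4). Start codons were placed for 61 members on the canonical transcripts of GENCODE release 44, and 55 had A or G at -3, 35 had G at 4, 32 had both and 3 had neither. Those 3 were EIF1, EIF1B and EIF3B. Each line gives 9 bases before the start codon and 1 after it, with the ATG in capitals, on GRCh37.
EIF1 (chr17:39845282-39845294, plus strand): tcgtatcgtATGt
EIF1B (chr3:40351424-40351436, plus strand): tagtatcgcATGt
EIF5 (chr14:103802189-103802201, plus strand): taagccaaaATGt
EEF1A1 (chr6:74229746-74229758, minus strand): aaagccaaaATGg
EIF5A2 (chr3:170625592-170625604, minus strand): ctgcccaccATGg
EIF4E (chr4:99850260-99850272, minus strand): cgatctaagATGg
The leader of EIF5 is 441 bases long and holds 3 ATGs ahead of the start codon, whereas those of EIF1 (154 bases) and EIF1B (235 bases) hold none. These are properties of the annotated transcripts, and start codon use was not measured.

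The subunits of eIF2, the GTPase that carries initiator tRNA, did not move together. EIF2S1, the alpha subunit that the stress kinases phosphorylate, measured 74.8, 79.2, 75.4 and 73.3 CPM at low glucose and 103, 102, 98.7 and 113 CPM at high glucose (1.38-fold, log2 difference 0.45 ± 0.045 SE, adjusted p = 0.000162). EIF2S3, the gamma subunit that binds GTP and tRNA, measured 305, 297, 304 and 307 CPM at low glucose and 228, 237, 231 and 228 CPM at high glucose (0.762-fold, log2 difference -0.39 ± 0.02 SE, adjusted p = 8.92e-06). Every high glucose library was above the low glucose range for EIF2S1 and below it for EIF2S3. EIF2S2, the beta subunit, measured 192, 185, 199.5 and 193 CPM at low glucose and 173, 162, 167 and 170.3 CPM at high glucose, a smaller fall without overlap (0.874-fold, log2 difference -0.19 ± 0.029 SE, adjusted p = 0.00136). EIF2S3 shares 35.0% of its words with EIF2S3B, which lay at or below 0.521 CPM.

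All 5 subunits of eIF2B, the exchange factor that reloads eIF2 with GTP, passed the test, 3 as higher and 2 as lower. At their level 66.9% of all genes passed. EIF2B5, the catalytic epsilon subunit, measured 37.5, 37.3, 35.1 and 35.3 CPM at low glucose and 49.8, 44.6, 46.9 and 43.1 CPM at high glucose (1.27-fold, log2 difference 0.33 ± 0.049 SE, adjusted p = 0.00112). EIF2B1, the alpha subunit of the regulatory core, measured 36.99, 36.97, 38.2 and 39.6 CPM at low glucose and 50.5, 44.5, 45.6 and 46.6 CPM at high glucose (1.23-fold, log2 difference 0.29 ± 0.044 SE, adjusted p = 0.00124). Neither gene overlapped between the groups, and EIF2B2 also rose, from a mean of 78.3 to 89.7 CPM (adjusted p = 0.00571), a call lost under quantile normalization. EIF2B3, the gamma subunit that pairs with epsilon, was lower, with 28.8, 28.1, 30.2 and 25.6 CPM at low glucose and 25.7, 22.96, 19.96 and 20.1 CPM at high glucose (0.787-fold, log2 difference -0.34 ± 0.091 SE, adjusted p = 0.0191). High glucose replicate 1 overlapped the low glucose range of EIF2B3, and its call was lost without low glucose replicate 1 (adjusted p = 0.0503) or 3 (0.0526), in a range from 0.00386 to 0.0526 over all alternatives. EIF2B4, the delta subunit, fell from a mean of 35.4 to 29.5 CPM (adjusted p = 0.00565).

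eIF3, the largest initiation factor, divided by subunit. Of its 14 genes 4 were higher, 6 lower and 4 not past the threshold, beside 33.6% higher and 33.3% lower among all genes of at least 5 CPM. Human eIF3 holds the subunits a, b, c, g, i and j, which budding yeast also has, and the subunits d, e, f, h, k, l and m, which budding yeast lacks. Among the 7 genes of the first set (EIF3C and EIF3CL both encode c) 4 were higher and 1 lower, with a median log2 difference of 0.21, and among the 7 of the second set 0 were higher and 5 lower, with a median of -0.53. This division was chosen after the values were seen and is given without a test. It coincides with the presence of a TOP start wherever a RefSeq start was found. EIF3D, EIF3F, EIF3K and EIF3M of the second set have a TOP start, and EIF3B, EIF3C, EIF3I and EIF3J of the first have none. Within eIF3 the grouping by yeast subunits and that by TOP start, given further on, therefore cannot be told apart. Under quantile normalization the counts were 2 higher and 1 lower in the first set, whose median became 0.13, and 0 higher and 6 lower in the second.

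The falls were in subunits k, l, e, f and h. EIF3K measured 449.8, 416, 422 and 420.4 CPM at low glucose and 311, 255, 253 and 243 CPM at high glucose (0.622-fold, log2 difference -0.69 ± 0.078 SE, adjusted p = 0.000324). EIF3L measured 366, 362, 367 and 362 CPM at low glucose and 249, 233, 227 and 225 CPM at high glucose (0.64-fold, log2 difference -0.64 ± 0.033 SE, adjusted p = 8.79e-06), and EIF3K and EIF3L encode the pair of subunits at the edge of the complex. EIF3E measured 607, 593, 606 and 582 CPM at low glucose and 424, 381, 393 and 399 CPM at high glucose (0.669-fold, log2 difference -0.58 ± 0.036 SE, adjusted p = 2.01e-05). For all of these, the highest high glucose library was below the lowest low glucose library. EIF3F (190.3 and 132 CPM, adjusted p = 0.000474) and EIF3H (413 and 326 CPM, adjusted p = 0.000424), which form the MPN-domain pair of the complex, fell as well. EIF3L shares 63.9% of its words with an overlapping locus on the same strand.

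The rises were in subunits j, g, a and b. EIF3J, the loosely bound subunit that acts near the mRNA channel, rose from a mean of 71.1 to 98.3 CPM (1.38-fold, log2 difference 0.46 ± 0.033 SE, adjusted p = 3.68e-05). EIF3G (152 to 181 CPM, adjusted p = 0.0107), EIF3A (319 to 371 CPM, adjusted p = 0.0108) and EIF3B (311 to 360 CPM, adjusted p = 0.00293), the RNA-binding, central and scaffold subunits, rose by less, and the calls of EIF3G and EIF3A were lost under quantile normalization. EIF3D (162 and 154 CPM), EIF3I (211 and 213 CPM) and EIF3M (105 and 106 CPM) did not pass. Among the alternatives, EIF3D passed as lower under quantile normalization and EIF3I as higher with the length trend removed. EIF3CL was lower (72.1 and 56.3 CPM, adjusted p = 0.000402) and EIF3C was not past the threshold (11.03 and 11.2 CPM), and because 99.4% of the words of EIF3C and 99.3% of those of EIF3CL are shared between them, the division of reads between these genes is uncertain. EIF3J-DT, a noncoding transcript that starts beside EIF3J, was lower (7.03 and 4.92 CPM, adjusted p = 0.0247), a call lost under quantile normalization and without low glucose replicate 1 or 3 or high glucose replicate 1, 2 or 4.

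**Figure D3:**
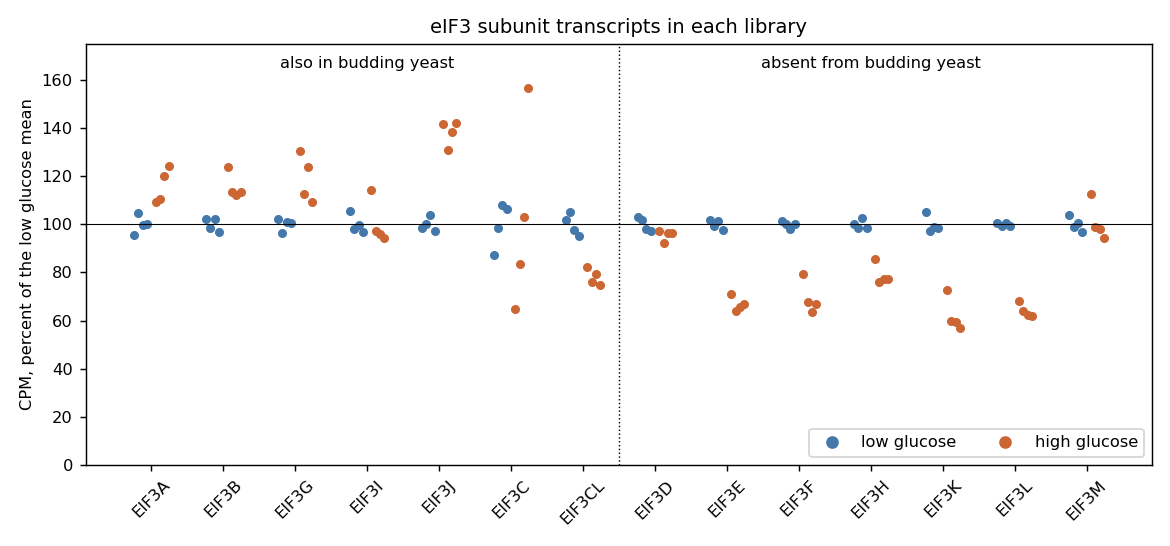
Level of each eIF3 gene in each library as a percent of its low glucose mean (vertical axis), for genes of subunits that budding yeast also has (left of the dotted line) and of subunits it lacks (right). EIF3A, EIF3B, EIF3G and EIF3J lie above 100 at high glucose, and EIF3E, EIF3F, EIF3H, EIF3K and EIF3L lie below it.

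Of the 12 eIF4 genes, 6 were higher, 2 lower and 4 not past the threshold, where 66.9% of all genes of at least 5 CPM passed. The 3 parts of eIF4F rose together. EIF4E, the cap-binding protein, measured 78.6, 73.7, 71.8 and 76.01 CPM at low glucose and 104, 97.9, 99.9 and 99.8 CPM at high glucose (1.34-fold, log2 difference 0.42 ± 0.033 SE, adjusted p = 5.95e-05). EIF4G1, the scaffold, measured 319, 334, 323 and 324 CPM at low glucose and 390.2, 387, 415 and 397 CPM at high glucose (1.22-fold, log2 difference 0.29 ± 0.028 SE, adjusted p = 0.000151). EIF4A1, the helicase, measured 801, 795, 787 and 775 CPM at low glucose and 1026, 915, 916 and 927 CPM at high glucose (1.2-fold, log2 difference 0.26 ± 0.044 SE, adjusted p = 0.00234). None of the 3 overlapped between the groups, and all of the sampled words of EIF4A1 (100%) are shared with loci that overlap it on the same strand, among them the readthrough gene SENP3-EIF4A1.

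EIF4A2, the second eIF4A, measured 195, 195, 205 and 206 CPM at low glucose and 255, 232, 229 and 228 CPM at high glucose (1.18-fold, log2 difference 0.23 ± 0.043 SE, adjusted p = 0.00351), with a difference of 0.15 under quantile normalization. The EIF4A1 to EIF4A2 log2 ratio was 1.97 ± 0.065 at low and 1.999 ± 0.020 at high glucose (SD, n = 4 each), a difference of 0.025 with an exact permutation p of 0.457, and of 0.24 under quantile normalization (adjusted p = 0.04). EIF4A3, which acts in the exon junction complex rather than in initiation, measured 179, 177, 182 and 174 CPM at low glucose and 273, 225, 219 and 212 CPM at high glucose (1.31-fold, log2 difference 0.38 ± 0.077 SE, adjusted p = 0.00573). Its high glucose replicate 1 was the highest library, and without that library the difference was 0.30. EIF4H, a helper of eIF4A, rose by 0.10 on the log2 scale (adjusted p = 0.00852), a call lost under quantile normalization.

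EIF4B, the other helper of eIF4A and a target of S6 kinase, went the other way. It measured 612, 611, 617 and 600.4 CPM at low glucose and 418, 399.6, 436 and 448 CPM at high glucose. The groups did not overlap, and EIF4B fell by 30.2% (0.698-fold, log2 difference -0.52 ± 0.038 SE, adjusted p = 3.97e-05). EIF4E3, a low-abundance eIF4E paralog, was lower (7.25 and 5.62 CPM, adjusted p = 0.0214), and its call was lost with a replicate block, under quantile normalization and without low glucose replicate 1 or 3 or high glucose replicate 2.

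The paralogs EIF4E2, EIF4G3 and EIF4G2 did not pass in the fit of all genes, and each passed under some alternatives. EIF4E2, which represses translation when bound to the cap, measured 107, 111, 108 and 105 CPM at low glucose and 108, 94.6, 98.9 and 99.7 CPM at high glucose (adjusted p = 0.0769), and it passed as lower under quantile normalization and without high glucose replicate 1. The log2 ratio of EIF4E to EIF4E2 rose by 0.52, with no overlap between the groups (exact permutation p = 0.0286, adjusted p = 0.04), from 0.663 to 0.734 in CPM at low glucose to 0.964 to 1.03 at high glucose. EIF4G3 measured 151, 145, 146 and 145 CPM at low glucose and 102, 122, 129 and 144 CPM at high glucose (adjusted p = 0.0712), and it passed as lower with genes under 1 or 5 CPM left out, under quantile normalization, with the length trend removed and without high glucose replicate 4. Its level differed among the high glucose libraries more than between the group means, and the log2 ratio of EIF4G1 to EIF4G3 rose by 0.54 (exact permutation p = 0.0286, adjusted p = 0.04). That p too was fixed by the single genes, which did not overlap between the groups and went in opposite directions. EIF4G2, which lacks the eIF4E-binding site and serves cap-independent initiation, measured 943, 912, 919 and 931 CPM at low glucose and 949, 967, 991 and 1037 CPM at high glucose (adjusted p = 0.0808). All of its high glucose libraries were above the low glucose range, and it passed as higher under median-of-ratios scaling, quantile normalization (0.23, beside 0.22 for EIF4G1), equal totals and without high glucose replicate 1. The log2 ratio of EIF4G1 to EIF4G2 rose by 0.20 (exact permutation p = 0.0286, adjusted p = 0.04) but was -0.015 with an adjusted p of 0.714 under quantile normalization. EIF4ENIF1, the eIF4E transporter, was at 26.3 and 31.4 CPM (adjusted p = 0.0764). It passed as higher with genes under 1 or 5 CPM left out, with the length trend removed and without high glucose replicate 1.

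**Figure D4:**
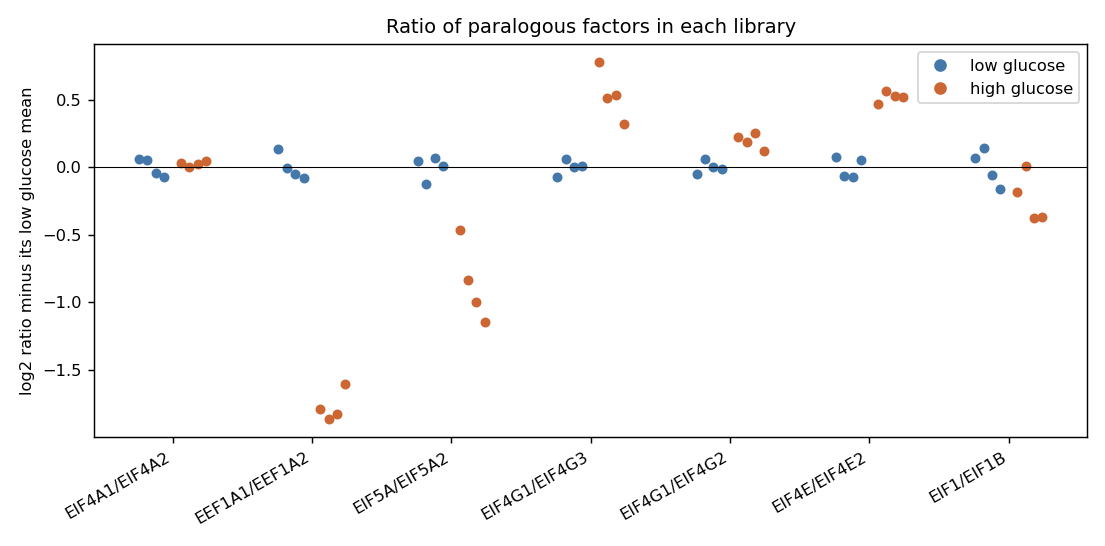
Log2 ratio of 7 pairs of paralogs in each library, minus the low glucose mean of the pair (vertical axis), with low glucose libraries left and high glucose libraries right in each pair. The ratio of EEF1A1 to EEF1A2 is the one furthest from its low glucose mean at high glucose, with a difference of -1.77 (-0.57 under quantile normalization), and that of EIF4A1 to EIF4A2 differs by 0.025.

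Among members with a TOP start lower calls outnumbered higher ones, and among those without one higher calls outnumbered lower ones. Of the 12 TOP-start members of at least 5 CPM, 1 was higher (EIF4A2) and 6 lower (EEF2, EIF4B, EIF2S3, EIF2D, EIF3F and EIF3K), with a median log2 difference of -0.36 (-0.17 under quantile normalization, with 2 higher and 7 lower). The 5 that did not pass were EEF1A1, EEF1B2, EIF2A, EIF3D and EIF3M. Of the 36 matched members without a TOP start at that level, 20 were higher and 6 lower (EEF2K, EEF1G, EIF2B3, EIF2B4, EIF4E3 and EIF3J-DT), with a median of 0.25. In shares, 8.33% of TOP-start members were higher and 50% lower, against 55.6% and 16.7% of the others. The grouping was chosen after values were seen and has no test. Among the matched eIF3 genes it is the same as the division by yeast subunits above. The 12 members not matched to a start were EIF3L, EEF1A2, EIF3E, EEF1D, EIF3A, EEF2KMT, EEF1AKMT3, EIF2S2, EIF3G, EIF3H, EEF1AKMT1 and EIF3CL. Without high glucose replicate 1 the counts were 1 higher and 8 lower with a TOP start, and 22 higher and 6 lower without. Without low glucose replicate 1, and likewise without low glucose replicate 3, members that lack a TOP start had 20 higher and 3 lower.

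The same split was smaller among other genes. Of 637 further genes of at least 5 CPM with a TOP start, ribosomal protein genes left out, 26.5% were higher and 41.4% lower (median -0.11), and of 8073 without one 34.4% were higher and 32.2% lower (median 0.011). Of the 79 cytosolic ribosomal protein genes of at least 5 CPM, whose transcripts are the classical TOP messages, 3 were higher and 52 lower (median -0.38), and 43 of the 63 with a RefSeq start had a TOP start. A list of 9 members named as TOP messages from general knowledge, which counts EEF1D, EEF1G, EIF3E and EIF3H as well, had 0 higher, 6 lower and 3 not past the threshold, with a median of -0.38. That list is not independent of the counts above. It was drawn up with earlier results of these data known, and its other members (EEF1A1, EEF1B2, EEF2, EIF3F and EIF4B) are also in the TOP-start group. RefSeq gives a start to the base, while cells use several neighbouring starts, so the absence of a tract in a window says nothing more than that these letters are not there.

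**Figure D5:**
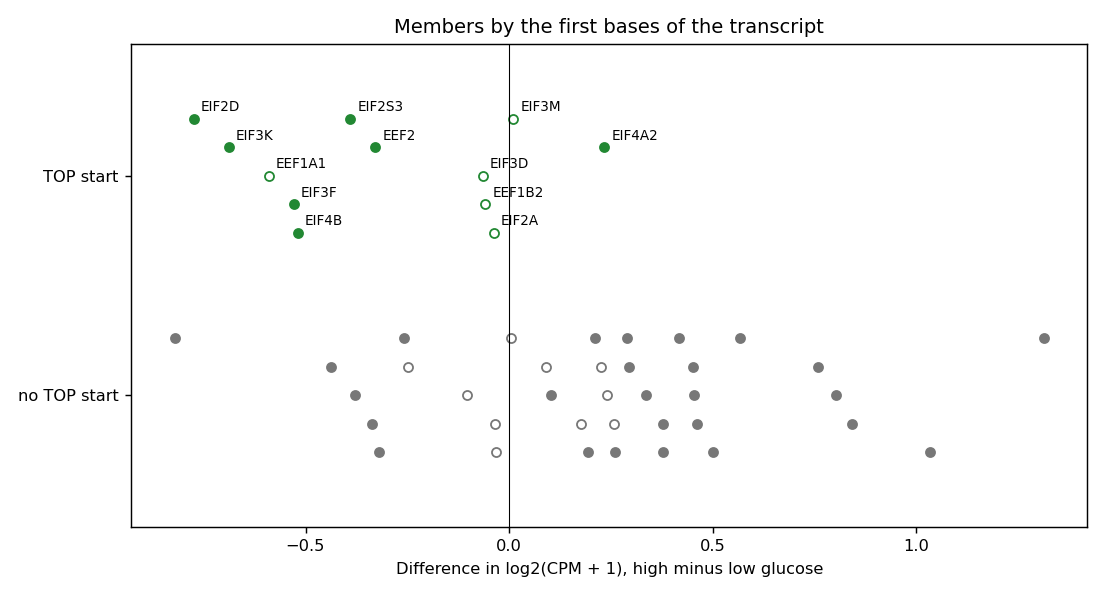
Difference in log2(CPM + 1), high minus low glucose (horizontal axis), for members of at least 5 CPM with a TOP start (green, named) and without one (grey), with filled points for adjusted p under 0.05 and a vertical spread for legibility alone. Of the TOP-start members, EIF4A2 alone is higher past the threshold, and EEF1A1, an open point, turned sign under quantile normalization.

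The sequence CACGTG, the core of the E-box that MYC and the glucose-responsive factor ChREBP can bind, was sought on both strands, on which it reads the same, in the 250 bases before and 50 after each RefSeq start. It holds purines, so a TOP tract cannot contain it. It was present in 13 of the 52 matched members, 25.0%, against 8.77% of all genes with a RefSeq start, expressed here or not. Of the 12 members with CACGTG at 5 CPM or more, 6 were higher and 5 lower (median log2 difference 0.16), and of the 36 without it 15 were higher and 7 lower (median 0.13). A match is a description of the window and not a bound site.

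Genes that regulate these factors were described from 5 lists. Of the 16 genes of cap-dependent regulation, 9 were higher, 4 lower and 3 not past the threshold. EIF4EBP1, the inhibitor that holds eIF4E away from eIF4G until mTOR phosphorylates it, fell from 88.4 to 92.9 CPM at low glucose to 40.4 to 58.8 CPM at high glucose (log2 difference -0.96 ± 0.11 SE, adjusted p = 0.000344). Its more abundant paralog EIF4EBP2 did not pass, with low and high glucose means of 139.1 and 138.9 CPM (adjusted p = 0.998). EIF4EBP3 did not pass either, with means of 1.81 and 0.926 CPM in that order (adjusted p = 0.0563). RPS6KB1, the S6 kinase, rose from a mean of 99.99 to 173 CPM (log2 difference 0.78 ± 0.06 SE, adjusted p = 5.09e-05), the RNA helicase gene DDX3X rose from 772 to 1274 CPM (log2 difference 0.72 ± 0.058 SE, adjusted p = 6.54e-05), and PABPC4, a poly(A)-binding protein, rose from 138 to 173 CPM (log2 difference 0.32 ± 0.022 SE, adjusted p = 3.43e-05).

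Of the 12 genes of eIF2 kinases and phosphatase, 6 were higher, 3 lower and 3 not past the threshold. The highest-ranking by adjusted p were PPP1R15B and PPP1R15A, which direct the phosphatase that removes the phosphate from eIF2 alpha, and DNAJC3, an inhibitor of eIF2 kinases. PPP1R15B rose from 95.9 to 177 CPM (log2 difference 0.88 ± 0.028 SE, adjusted p = 1.6e-06), PPP1R15A from 50.8 to 115 CPM (log2 difference 1.16 ± 0.054 SE, adjusted p = 5.99e-06) and DNAJC3 from 166 to 274 CPM (log2 difference 0.72 ± 0.033 SE, adjusted p = 5.37e-06). Phosphorylation was not measured.

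Among the 10 genes of termination, recycling and rescue, 5 were higher, 2 lower and 3 not past the threshold, and the release factor genes ETF1 (log2 difference 0.84 ± 0.024 SE, adjusted p = 1.26e-06) and GSPT1 (log2 difference 0.73 ± 0.03 SE, adjusted p = 3.7e-06) and the recycling factor gene ABCE1 (log2 difference 0.60 ± 0.025 SE, adjusted p = 3.98e-06) led the list. The 9 enzymes that make hypusine on eIF5A or diphthamide on eEF2 had 4 higher, 3 lower and 2 not past the threshold, led by DPH3 (log2 difference 1.04 ± 0.046 SE, adjusted p = 4.84e-06), DPH1 (log2 difference -0.59 ± 0.034 SE, adjusted p = 1.34e-05) and DPH5 (log2 difference -0.56 ± 0.06 SE, adjusted p = 0.000257). DOHH, which completes hypusine, was named after its values were seen. It rose from 6.001 to 7.98 CPM at low glucose to 12.7 to 22.5 CPM at high glucose (log2 difference 1.23 ± 0.17 SE, adjusted p = 0.0008), while DHPS, the enzyme of the step before, was at 47.4 and 41.6 CPM (adjusted p = 0.0651). Of the 10 mitochondrial translation factors measured, 4 were higher, 3 lower and 3 not past the threshold, led by GFM1 (log2 difference 0.39 ± 0.03 SE, adjusted p = 5.45e-05), MTRF1L (log2 difference 1.11 ± 0.089 SE, adjusted p = 5.91e-05) and GFM2 (log2 difference 0.34 ± 0.048 SE, adjusted p = 0.00101). The share of genes called in these lists is to be read beside the 66.9% of all genes of at least 5 CPM.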

How the data were processed

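RNA was sequenced from MDA-MB-157 cells at low and high glucose, 4 libraries each, grouped by the labels. The authors deposited 1 table of CPM, scaled with TMM factors from edgeR. The submitters' processing notes name hg38, whereas the study's methods, written first for tumors, name hg19, TopHat and a filter on low CPM. The counting tool and its use of strand are not given in the sources used here. Low values lie on fractional steps, so reads were estimated from the commonest lowest value, and whole reads were not recovered. These depths cover counting error only.

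From the 21077 lines, 18 pseudoautosomal Y copies were left out. Values were analysed as log2(CPM + 1), which understates changes of low genes, with limma 3.58.1 in R 4.3.3 (mean-variance trend, 2-sided, no covariate, no filter) over all 21059 genes, with Benjamini-Hochberg adjustment over all of them and a threshold of 0.05. The step was tried on simulated reads with independent noise of the same size added to every gene and no length trend. That trial does not cover a trend such as that of high glucose replicate 1. Log2 ratios of 7 paralog pairs were compared by an exact 2-sided permutation test over 70 assignments. Folds are ratios of group means in CPM.

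The members and lists were chosen with earlier results of these data known. In full are given EEF1A1, EEF2, EIF4E, EIF4G1, EIF2S1, EIF5A, EEF2K, the pair members and, in each role, the 3 largest changes among members past 0.05 with at least 5 CPM, and of each other list the 3 genes of smallest adjusted p with EIF4EBP1. EIF1AY, EIF4E1B and MTRFR are not analysed here. Start codons, transcript lengths, overlaps and the share of 31-base words that other genes hold came from GENCODE release 44 on GRCh37, and transcript starts from RefSeq on GRCh38.p14. Without stated strand use, reads of genes and their antisense partners cannot be told apart. Alternatives were another pseudocount, filters at 1 and 5 CPM, median-of-ratios scaling, quantile normalization, equal totals, a replicate block, removal of a length trend and leaving out each library.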

Additional observations from a re-analysis of the deposited data

Results flagged for a closer look

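Single libraries that stood away from the others of their group were sought in 70 groups of 4 values, the 28 members given in full and the 7 paralog ratios at each glucose level, by the gap between the extreme library and its neighbour as a part of the group's range (Dixon's 95% critical value). This picked out 4 groups, where chance alone gives about 3.5. High glucose replicate 1 was the highest library for EEF1A1 at 11506 CPM, with a gap of 0.9048 of the range, for EIF4A1 at 1026 CPM, with 0.8919, and for EIF4A2 at 255 CPM, with 0.8328. Low glucose replicate 1 was the highest low glucose library for EIF4G3 at 151 CPM, with 0.8294, just past the critical value. High glucose replicate 1 is also the library whose deviations fell with transcript length, and the part of that in these values was not tested.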

How the results depend on the processing

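Under every alternative run, no member called in both fits changed direction. The number of members past the threshold went from 24 higher and 18 lower to 23 and 17 under quantile normalization and 29 and 19 with the length trend removed. Leaving out 1 library gave 24 to 26 higher and 14 to 21 lower. The median log2 difference over all tested members, 0.0020, became 0.072 with a filter at 5 CPM, 0.050 under quantile normalization and 0.096 with the length trend removed, the filter doing so by leaving out low members. Quantile normalization reversed EEF1A1 (0.51) and the ratio of EIF4G1 to EIF4G2 (-0.015), took the ratio of EEF1A1 to EEF1A2 to -0.57 and that of EIF4A1 to EIF4A2 to 0.24 (adjusted p = 0.04 for both), and gave 2 higher among the eIF3 subunits shared with budding yeast and 2 higher among TOP-start members. For the ranking-based reversal of EEF1A1 the construction of the method shows how it arises, and for the others the cause was not tested. Without any 1 low glucose library the test of the ratios has 35 assignments, and no pair stayed under 0.05, with an adjusted p of 0.08 for EIF5A to EIF5A2 and 0.05 for the other 4 that had passed. When 1 library was left out, the differences in the ratio ranged from -0.99 to -0.77 for EIF5A to EIF5A2, from -1.83 to -1.73 for EEF1A1 to EEF1A2, from 0.50 to 0.55 for EIF4E to EIF4E2, from 0.18 to 0.22 for EIF4G1 to EIF4G2 and from 0.46 to 0.61 for EIF4G1 to EIF4G3, each in the direction of the full data. Lower members without a TOP start numbered 3 to 6 when 1 library was left out. The groupings by TOP start and by yeast subunits, and their alternatives, were chosen after seeing the data. Same-numbered libraries correlated in their deviations at 0.069, -0.028, 0.014 and -0.040, so no shared effect of the replicate number was seen. Whether same-numbered libraries were set up together is not stated, and these values cannot decide it. A replicate block left 24 members higher and 17 lower, with the call of EIF4E3 lost, and no blocked test of the ratios was run, since 4 pairs allow no p under 0.125. Depth limits the 4 members under 1 CPM, for which no difference was detectable.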
